A study of Mus musculus with 8 samples.

Results

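The genes described here are 42 genes of fibroblasts, of mesothelium and of the matrix these cells lay down. They were measured in macrophage RNA on 8 expression arrays. The genes came from a list of symbols that was chosen with earlier results of these data known. Each was found through the array's transcript names, and that matching used no measured values. All 42 matched, through 51 of 39429 gene probes, and all 42 entered the tests among 20738 features (14493 named genes and 6245 unnamed probes). Of these, 35 are collagen, matrix and fibroblast genes, 5 are mesothelial (Wt1, Msln, Upk3b, Upk1b and Krt19) and 2 are the simple epithelial keratins Krt8 and Krt18. The macrophages were taken from male mice treated with LPS, a bacterial endotoxin. The WT group (4 arrays, WT 1 to WT 4) came from wild-type mice, and the EP2KO group (4 arrays, EP2KO 1 to EP2KO 4) from mice lacking EP2. EP2, encoded by Ptger2, is a receptor through which prostaglandin E2 raises cyclic AMP. All groups had received LPS, so there was no untreated group. The strain, the age, the allele, the site of the macrophages, and the dose and time of LPS are not stated in any source used. By its title, the series concerns cardiac repair and what EP2 does in macrophages.

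Fibroblasts make the fibrillar collagens, which assemble outside the cell into fibres. Small proteoglycans such as decorin and lumican bind those fibres, and lysyl oxidases cross-link them. Mesothelium is the epithelium-like lining of the peritoneal, pleural and pericardial cavities. Its cells carry the transcription factor WT1, the surface protein mesothelin, uroplakins and simple keratins. Macrophages are generally not a main source of these transcripts. In bulk RNA such as this, fewer cells of a type and less RNA per cell cannot be told apart.

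RefSeq promoter entries existed for 28 of the 42 genes (build GRCm38.p6). Of the members with an entry, 4 are shown over the 150 bases before the annotated start. Col1a2 (chr6:4505468-4505617, plus strand) and Col3a1 (chr1:45311388-45311537, plus strand) are fibrillar collagens, and Upk3b (chr5:136038346-136038495, plus strand) is mesothelial. These 3 were lower in EP2KO on the second slide. Pdpn (chr4:143299565-143299714, minus strand) was grouped here with the fibroblast surface genes and had nearly equal signals there. Capitals mark letters that the search found: CCAAT or TATAAA in these windows. The TATAAA match of Col3a1 is at position -117 relative to the start.
Col1a2: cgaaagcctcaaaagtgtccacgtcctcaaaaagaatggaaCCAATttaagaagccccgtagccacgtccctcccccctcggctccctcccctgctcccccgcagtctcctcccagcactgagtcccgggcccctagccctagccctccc
Col3a1: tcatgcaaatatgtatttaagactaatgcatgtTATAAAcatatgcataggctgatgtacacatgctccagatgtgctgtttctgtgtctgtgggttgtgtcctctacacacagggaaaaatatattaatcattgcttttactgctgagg
Upk3b: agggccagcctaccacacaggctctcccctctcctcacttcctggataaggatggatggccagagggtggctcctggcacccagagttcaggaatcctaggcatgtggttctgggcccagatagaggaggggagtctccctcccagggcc
Pdpn: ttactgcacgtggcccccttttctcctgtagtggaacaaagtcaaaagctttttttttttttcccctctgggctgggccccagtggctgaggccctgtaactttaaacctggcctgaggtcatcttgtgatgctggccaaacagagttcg

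Over the 250 bases before the start, CCAAT on either strand was present in 7 of the 28 promoters (25.0%), against 37.5% of 27025 genes with an entry. GGGCGG on either strand was in 11 (39.3%, against 35.4%), and TATAAA on the sense strand in 4 (14.3%, against 8.94%). None of the 3 motifs contains another. A match describes letters in this window only. The type IV collagen genes Col4a1 and Col4a2 start 21 bases apart on opposite strands of chromosome 8.

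Signals below are relative to each array's 75th percentile of processed signal, which ran from 987 on WT 2 to 1508 on WT 3. A value of 1 equals that percentile. Between 25555 (WT 1) and 32147 (WT 3) of the gene probes passed the scanner's test for being well above background, and no spot (0) was saturated. The arrays lay on 2 slides: slide 1 held WT 1, WT 2, EP2KO 1 and EP2KO 2, and slide 2 held WT 3, WT 4, EP2KO 3 and EP2KO 4. Slide and scan day coincide. WT arrays held the first positions on both slides and EP2KO arrays the last, so an effect of position cannot be told apart from that of genotype. Ptger2 had relative signals of 0.972, 1.12, 0.899 and 1.00 on WT 1 to WT 4 and of 0.357, 0.287, 0.323 and 0.225 on EP2KO 1 to EP2KO 4, with no overlap. The sources used here do not give the deleted exons, so the position of its probe relative to them is unknown. Nothing in the labels ties each array to its own mouse. The p-values therefore reflect only how these 8 RNA samples vary, which may be technical.

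The 42 genes varied far more between arrays than most features did. The highest array exceeded the lowest by more than 10-fold in 37 of 42 members, against 7.93% of all features. The median of this range was 25.2-fold over the members and 1.96-fold over all features. It was smallest for Gsn (3.11-fold) and largest for Mgp (123-fold). All 42 genes were well above background on the 4 WT arrays, and 38 were so on all 8 arrays. Fbln1, Postn, Lox and Mmp2 were not well above background on EP2KO 4, so their values there rest partly on background.

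**Figure D1:**
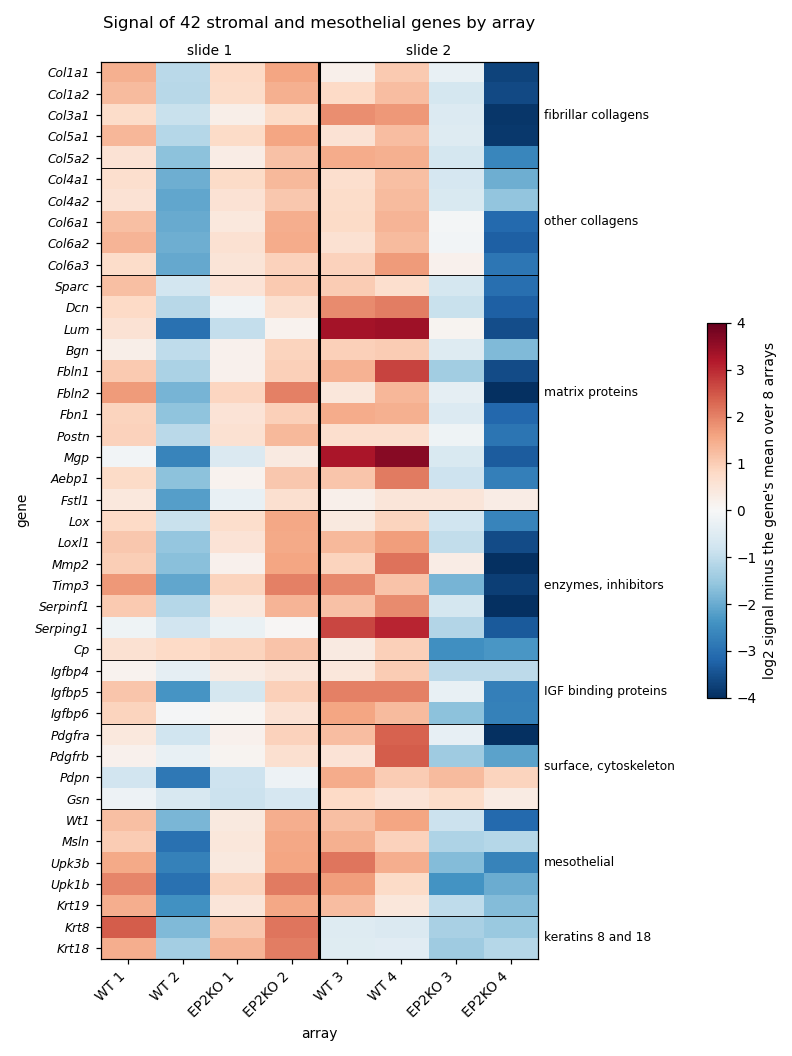
Heat map of the 42 genes (rows, grouped by role) on the 8 arrays (columns, slide 1 left of the line and slide 2 right); colour is log2 signal minus the gene's mean over all arrays, red above it and blue below, with the colour scale ending at 4 log2 units. EP2KO 4 is blue in most collagen and matrix rows, WT 2 is blue across nearly all rows, and Gsn and Pdpn are red across slide 2.

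Compared over all 8 arrays, no member differed between the genotypes beyond the spread of the replicates. Log2 differences are EP2KO minus WT, and called means a Benjamini-Hochberg adjusted p under 0.05 over all features in limma. The call count was 0 of 42 members, with 0.00964% of all features called. At an unadjusted p under 0.05 there was 1 member, Igfbp6, against 1.98% of features. With the slide as a block limma called 0 members (0.0193% of features), with 1, Igfbp6, at an unadjusted p under 0.05 (7.34% of features). Ptger2 itself, at -1.76, was not called without a block (limma adjusted p = 0.0616). It was called with the slide as a block (limma adjusted p = 0.0328). With the replicate number as a block it called 0 members and 0% of features, with 0 members at an unadjusted p under 0.05 (5.45% of features). Signals were lower in EP2KO for 33 of 35 collagen and fibroblast genes (median -1.09) and for 5 of 5 mesothelial genes (median -0.70). Krt8 and Krt18 had a median of 0.32. Over all features the median was -0.03, with 11739 of 20738 lower. In 0 members did all EP2KO arrays lie below all WT arrays (0.95% of features) or above them (0.434%).

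The genotype difference had opposite signs on the slides. On slide 1, EP2KO was higher for 40 of 42 members, with a median of 1.04 for collagen and fibroblast genes and 1.58 for mesothelial genes. The exceptions were Gsn (-0.34) and Igfbp6 (-0.10). On slide 2, EP2KO was lower for 41 of 42, with medians of -3.12 and -3.37; Fstl1 was at 0.04. All features had medians of -0.09 on slide 1 and 0.05 on slide 2. Both EP2KO arrays lay below both WT arrays of slide 2 in 39 of 42 members, against 21.3% of features, and Fstl1, Pdpn and Gsn were the exceptions. On slide 1 both EP2KO arrays lay above both WT arrays in 4 members (Col4a1, Col4a2, Cp and Igfbp4), against 15.6% of features, and below them in 1 (Gsn), against 33.9%.

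**Figure D2:**
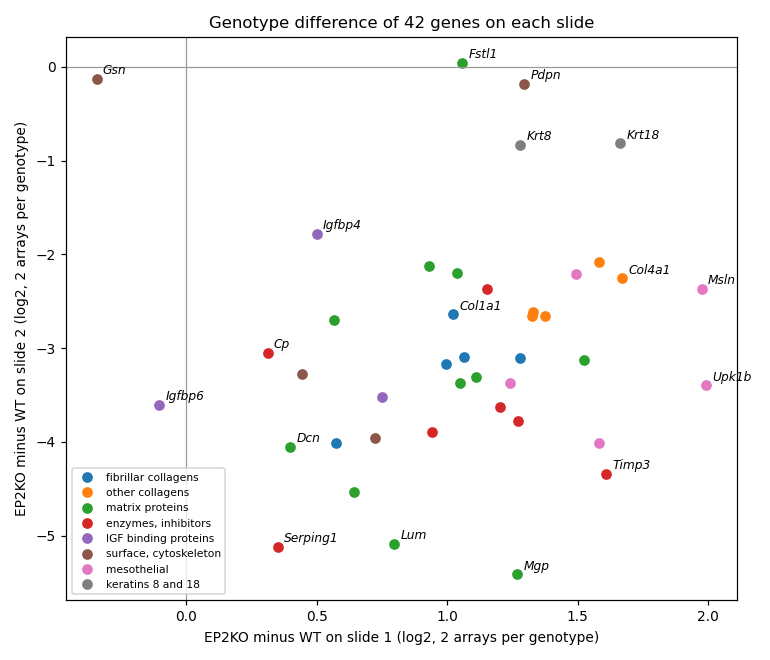
Scatter plot of the genotype difference on slide 1 (horizontal, EP2KO minus WT, log2) against that on slide 2 (vertical, same unit), 1 point per gene, coloured by role, each from 2 arrays per genotype and slide. Most points lie right of 0 and below it, Mgp is lowest at -5.41, and Fstl1, Pdpn and Gsn lie near 0 on slide 2.

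Fitted alone with 2 arrays per genotype, slide 1 gave 0 calls in limma among members and 0% of features, with 0 members at an unadjusted p under 0.05 (12.9% of features). Slide 2 alone called 5 members lower: Cp (adjusted p = 0.0355), Msln (0.0428), Upk3b (0.0478), Upk1b (0.0479) and Igfbp6 (0.0499), all by limma. In that fit 1.43% of features were called lower and 0.0567% higher (1.48% in all). At an unadjusted p under 0.05 there were 31 members, all lower, against 16.7% of features. The test of the difference between slides, the genotype by slide interaction, called 0 members and 0.0145% of features. It had an unadjusted p under 0.05 in 28 of 42 members, against 21.1% of features. Its median was -4.16 over the members and 0.14 over all features. The smallest limma p was that of Cp (adjusted p = 0.067), followed by Igfbp4 (0.0951) and Serping1 (0.107). Interaction fits without 1 array leave a single array in its genotype and slide, so their calls are not counted here. Mean differences of most members thus had opposite signs on the slides, while the interaction over 8 arrays was not called. On slide 1, WT 2 was the lowest array in 40 of 42 members. With each gene centred on its mean, the collagen and fibroblast median of WT 1 (0.79) lay between EP2KO 1 (0.32) and EP2KO 2 (1.04). The mesothelial median of WT 1 (1.46) also lay between theirs (0.45 and 1.55).

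Fibrillar collagens form the main fibres of connective tissue. Col1a1, a chain of type I collagen, had relative signals of 9.05, 1.58, 3.88 and 6.92 on WT 1 to WT 4. On EP2KO 1 to EP2KO 4 they were 5.86, 10.1, 2.71 and 0.256. The genotypes overlapped, with WT 2 the lowest WT array and EP2KO 4 the lowest of all. The difference was -0.81 ± 1.14 (SE, n = 4 per genotype, adjusted p = 1). Col1a2, the partner chain of type I collagen, had 33.0, 6.33, 23.7 and 32.0 on the WT arrays and 22.8, 36.6, 8.45 and 1.11 on the EP2KO arrays, in the same order of arrays. The same arrays stood out, and its difference was -1.09 ± 1.1.

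Col3a1, the chain of type III collagen, departed from type I on slide 2. It had 9.31, 3.00, 20.2 and 18.4 on the WT arrays and 6.58, 9.43, 3.82 and 0.374 on the EP2KO arrays. WT 3 and WT 4 were the highest arrays, above WT 1, which type I did not show. The difference was -1.72 ± 1.08 (0.57 on slide 1, -4.01 on slide 2). Col5a1 and Col5a2, chains of type V collagen that take part in starting fibrils, differed by -1.02 ± 1.16 and -0.92 ± 0.96. All 5 fibrillar collagens were lowest on EP2KO 4, against 11.2% of all features.

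The other collagens run in basement membranes (type IV) and in beaded microfibrils (type VI). Col4a1 had 0.168, 0.0271, 0.168 and 0.242 on the WT arrays and 0.178, 0.259, 0.0659 and 0.0270 on the EP2KO arrays. WT 2 and EP2KO 4 were at the same low level, EP2KO 1 lay just above WT 1, and EP2KO 2 was the highest array. Its difference was -0.29 ± 0.90, and that of Col4a2, its partner chain with the adjacent start, was -0.25 ± 0.85. On slide 1 the values were 1.67 and 1.58, and on slide 2 -2.25 and -2.08. Col6a1, Col6a2 and Col6a3 differed by -0.66 ± 1.11, -0.64 ± 1.13 and -0.64 ± 1.05. For Col6a1, WT 2 at 0.704 stood apart from the other WT arrays, which lay between 4.83 and 7.16, and EP2KO 4 was at 0.326. Leaving out EP2KO 4 turned the sign of all 5 of these collagens and of Col1a1 and Col5a1, none of which was called.

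Among the 11 matrix proteins, 10 had a lower mean in EP2KO, and Fstl1 did not. Dcn (decorin), which binds collagen fibrils, had 26.1, 7.06, 56.4 and 62.6 on the WT arrays. On the EP2KO arrays it had 13.7, 23.5, 8.12 and 1.59. WT 3 and WT 4 were above every other array, and WT 2 lay within the EP2KO range. The difference was -1.82 ± 0.98 (0.40 on slide 1, -4.05 on slide 2). Lum (lumican), a related proteoglycan, had 0.440, 0.0372, 2.96 and 3.08 on the WT arrays and 0.152, 0.325, 0.316 and 0.0251 on the EP2KO arrays. Mgp, an inhibitor of calcification in matrix, had 1.48, 0.258, 15.4 and 19.9 on the WT arrays and 1.08, 2.05, 1.05 and 0.161 on the EP2KO arrays. WT 3 and WT 4 again stood alone for both genes, and the remaining arrays overlapped. Lum differed by -2.14 ± 1.53 and Mgp by -2.07 ± 1.48. On slide 2 the values were -5.08 for Lum and -5.41 for Mgp, although EP2KO 3 was at the level of EP2KO 2 for Lum and of EP2KO 1 for Mgp. The mean of WT 3 and WT 4 exceeded WT 1 by 3.57 log2 units for Mgp, 2.78 for Lum and 1.19 for Dcn, while Col1a1 was at -0.80 and Sparc at -0.36.

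**Figure D3:**
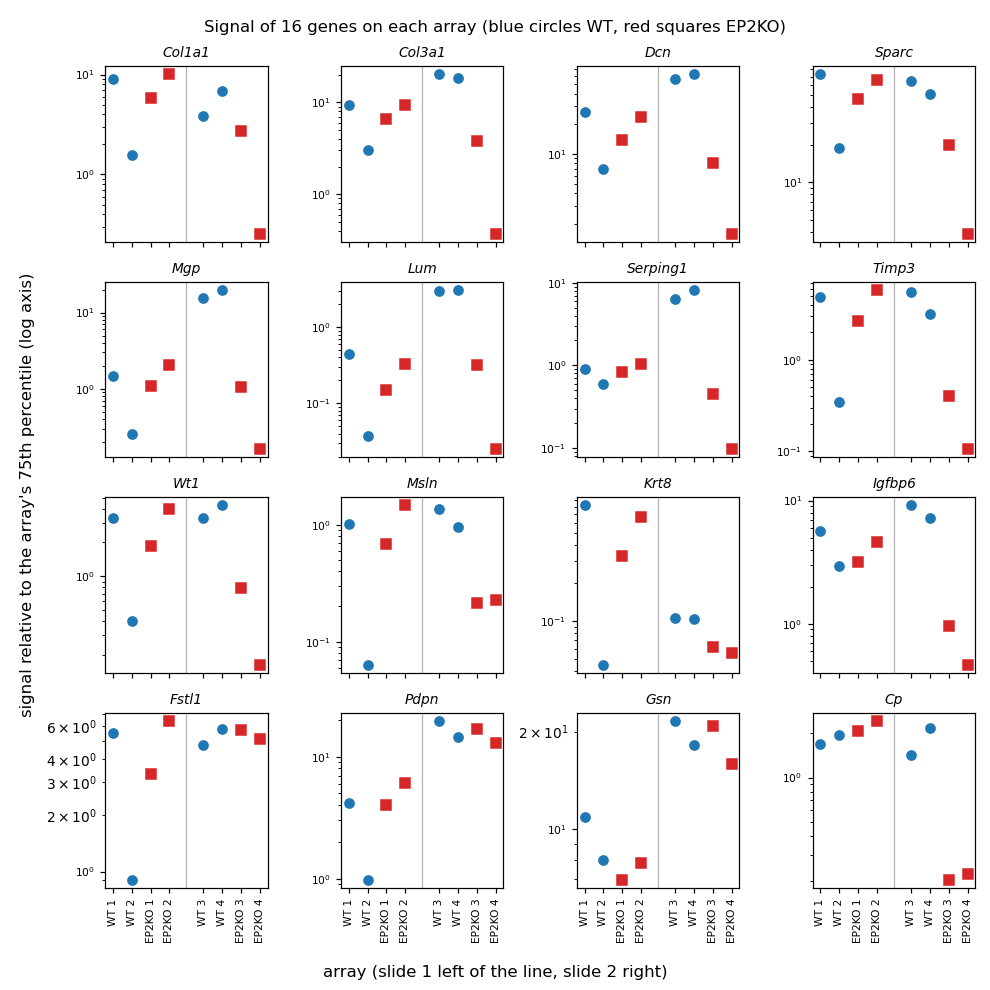
Relative signal of 16 genes on each array (log axis; slide 1 left of the grey line, slide 2 right), blue circles WT and red squares EP2KO, 1 point per array with no averaging. For Mgp, Lum and Serping1 the WT arrays of slide 2 are the highest, for Cp the EP2KO arrays of slide 2 are the lowest, and for Gsn and Pdpn all slide 2 arrays are above all slide 1 arrays.

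Sparc (osteonectin), a collagen-binding glycoprotein, had 73.1, 19.0, 64.2 and 50.6 on the WT arrays and 46.4, 65.5, 19.7 and 3.9 on the EP2KO arrays. As for type I collagen, EP2KO 4, WT 2 and EP2KO 3 were the lowest arrays, and the difference was -1.07 ± 0.89. The elastic fibre proteins Fbln1, Fbln2 and Fbn1 differed by -1.95 ± 1.14, -0.80 ± 1.37 and -1.1 ± 1.04. Postn (periostin) and Bgn (biglycan), which also bind collagen, differed by -0.58 ± 0.91 and -0.59 ± 0.65. Aebp1, a secreted collagen-binding protein, differed by -1.16 ± 1.00. Fstl1, a secreted follistatin-like glycoprotein, had 5.48, 0.899, 4.78 and 5.79 on the WT arrays and 3.34, 6.39, 5.74 and 5.12 on the EP2KO arrays. It shared the low WT 2 value with the other matrix genes, but EP2KO 4 was at the level of the other arrays. Its difference was 0.55 ± 0.60, and without WT 2 it was -0.091, neither called.

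Enzymes and inhibitors that shape the matrix followed the same arrays, with exceptions in Serping1 and Cp. Lox and Loxl1, which cross-link collagen and elastin, differed by -0.61 ± 0.89 and -1.25 ± 1.18. Mmp2, a gelatinase, and Timp3, a matrix-bound inhibitor of metalloproteinases, differed by -1.21 ± 1.37 and -1.37 ± 1.41. Timp3 had 4.84, 0.346, 5.49 and 3.18 on the WT arrays and 2.67, 5.83, 0.401 and 0.106 on the EP2KO arrays. WT 2 lay between EP2KO 3 and EP2KO 4, and the other 5 arrays lay above them. Serpinf1 (PEDF), an anti-angiogenic serpin, differed by -1.48 ± 1.19.

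Serping1, the inhibitor of complement C1, had 0.898, 0.587, 6.32 and 8.20 on the WT arrays and 0.828, 1.04, 0.444 and 0.0969 on the EP2KO arrays. The slide 1 arrays lay close together in both genotypes, WT 3 and WT 4 were above all others, and EP2KO 3 and EP2KO 4 were below all others. The difference was -2.38 ± 1.09 (0.35 on slide 1, -5.12 on slide 2). Its interaction was -5.47 ± 0.94. Cp (ceruloplasmin), a copper-carrying ferroxidase, had 1.68, 1.93, 1.42 and 2.15 on the WT arrays and 2.07, 2.42, 0.202 and 0.222 on the EP2KO arrays. On 6 arrays it lay between 1.42 and 2.42, and EP2KO 3 and EP2KO 4 alone were low. WT 2 and EP2KO 4, which were low for most members, did not stand apart from their slide partners here. Cp was at -1.37 ± 0.88 over all arrays, with 0.31 on slide 1, -3.05 on slide 2 and an interaction of -3.36 ± 0.31. A second Cp probe, for another transcript, was not well above background on WT 1, WT 2, EP2KO 3 and EP2KO 4. Its differences had the same signs (0.47 on slide 1 and -4.52 on slide 2) and rest partly on background. Among the arrays it was highest on WT 3 (0.0994) and WT 4 (0.141). Unlike the first probe, it was far lower on all slide 1 arrays than on WT 3 and WT 4.

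The IGF binding proteins carry insulin-like growth factors outside the cell. Igfbp6 had 5.67, 2.96, 9.14 and 7.24 on the WT arrays and 3.19, 4.58, 0.965 and 0.466 on the EP2KO arrays. WT 2 lay below EP2KO 1 and EP2KO 2, so the genotypes overlapped, while on slide 2 they did not. Its difference of -1.85 ± 0.74 had an unadjusted p of 0.0382 in limma, an adjusted p of 1 and an exact two-sided permutation p of 0.0857, where the smallest possible is 0.0286. It was -3.60 on slide 2. Igfbp4 had 0.546, 0.385, 0.674 and 0.997 on the WT arrays and 0.612, 0.687, 0.240 and 0.238 on the EP2KO arrays. As with Cp, EP2KO 3 and EP2KO 4 agreed closely and were the lowest, and its interaction was -2.28 ± 0.35. Igfbp5 differed by -1.39 ± 1.14.

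Of the surface and cytoskeletal genes, Pdgfra had the collagens' low WT 2 and EP2KO 4, Pdgfrb had them only weakly, and Pdpn and Gsn had nearly equal signals in both genotypes on slide 2. Pdgfra, the alpha receptor for platelet-derived growth factor, had 0.442, 0.189, 0.778 and 1.67 on the WT arrays and 0.371, 0.615, 0.259 and 0.0208 on the EP2KO arrays. EP2KO 4 was the lowest by far, and WT 4 the highest. It differed by -1.62 ± 1.12. Pdgfrb, the beta receptor, had 0.0621, 0.0445, 0.0801 and 0.295 on the WT arrays and 0.0599, 0.0853, 0.0204 and 0.0124 on the EP2KO arrays. WT 2 was near WT 1, and both slide 2 EP2KO arrays were the lowest. It differed by -1.41 ± 0.78. Pdpn (podoplanin), a mucin-type surface protein, had 4.18, 0.974, 19.6 and 14.3 on the WT arrays and 4.01, 6.10, 16.8 and 13.0 on the EP2KO arrays. Gsn (gelsolin), which severs actin filaments, had 10.9, 8.01, 21.6 and 18.1 on the WT arrays and 6.94, 7.82, 20.8 and 15.8 on the EP2KO arrays. In both genes every slide 2 array was above every slide 1 array, and the genotypes overlapped. Pdpn differed between genotypes by 0.56 ± 0.97 and Gsn by -0.23 ± 0.46. The second probes of Pdpn and Gsn gave 0.69 and -0.19.

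Between the slides, with genotype in the model, Pdpn rose by 2.32 ± 0.51 on slide 2 (limma adjusted p = 0.0104). Gsn rose by 1.19 ± 0.15 (limma adjusted p = 0.00112). These were the 2 members called higher, against 25.1% of features, and 0 were called lower, against 18.2%. At an unadjusted p under 0.05 there were 4 members, Cp and Krt18 lower among them, against 52% of features. A smaller share of the members than of all features was thus called. The median over all members was -0.44, with 35 of 42 lower on slide 2, and over all features 0.06. Cp (-1.72 ± 0.65, adjusted p = 0.0682), Krt18 (-1.76 ± 0.72, 0.0874) and Krt8 (-1.94 ± 0.91, 0.125) had the next smallest limma values. Without WT 2, Krt18, Upk1b, Krt19 and Krt8 were called lower, and without WT 4, Cp was. The share of all features called in those fits was not computed.

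The mesothelial genes were low on 3 arrays: WT 2, EP2KO 3 and EP2KO 4. Msln (mesothelin), a surface glycoprotein of mesothelium, had 1.02, 0.0636, 1.35 and 0.955 on the WT arrays and 0.687, 1.46, 0.214 and 0.227 on the EP2KO arrays. Its difference was -0.20 ± 1.08, made of 1.97 on slide 1 and -2.36 on slide 2. Wt1, a transcription factor of mesothelium, had 3.29, 0.403, 3.27 and 4.26 on the WT arrays and 1.87, 3.96, 0.787 and 0.165 on the EP2KO arrays. Unlike Msln, it was lower on EP2KO 4 than on EP2KO 3. It differed by -1.07 ± 1.11.

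Upk3b and Upk1b, uroplakins that mesothelium shares with the bladder lining, also had their lowest values on those 3 arrays. Upk3b had 0.414, 0.0222, 0.642 and 0.399 on the WT arrays and 0.190, 0.433, 0.0438 and 0.0226 on the EP2KO arrays. Upk1b had 0.391, 0.0129, 0.321 and 0.173 on the WT arrays and 0.187, 0.427, 0.0194 and 0.0259 on the EP2KO arrays. WT 2 was the lowest of the 8 arrays for each, level with EP2KO 4 for Upk3b, so the genotypes overlapped. The differences were -1.21 ± 1.30 for Upk3b and -0.70 ± 1.38 for Upk1b. Krt19, a simple keratin, differed by -0.36 ± 1.02.

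Krt8 and Krt18 pair with each other in the filaments of simple epithelia. Krt8 had 0.820, 0.0449, 0.106 and 0.102 on the WT arrays and 0.325, 0.668, 0.0621 and 0.0551 on the EP2KO arrays. Krt18 had 1.25, 0.180, 0.328 and 0.336 on the WT arrays and 1.19, 1.90, 0.170 and 0.210 on the EP2KO arrays. Both were high on WT 1, EP2KO 1 and EP2KO 2 and low on the other 5 arrays, WT 3 and WT 4 included. In that they differed from the mesothelial genes, which were high on WT 3 and WT 4. The genotype differences were 0.22 ± 1.11 for Krt8 and 0.42 ± 0.93 for Krt18.

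In 2 of the 4 pairs of arrays that share genotype and slide, most members differed widely. WT 2 was more than 1 log2 unit below WT 1 in 36 of 42 members, against 6.14% of features. It was the lowest slide 1 array in 40 of 42, against 22.1%. The median of WT 2 minus WT 1 was -2.50 over the members, -4.0 over the mesothelial genes and -2.39 over the collagen and fibroblast genes. EP2KO 4 was more than 1 log2 unit below EP2KO 3 in 29 of 42 members, against 2.66% of features. Of these, 28 were among the 35 collagen and fibroblast genes, and 1, Wt1, was among the 5 mesothelial genes. The median of EP2KO 4 minus EP2KO 3 was -3.33 for fibrillar collagens, -3.04 for the other collagens, -2.36 for matrix proteins and -2.20 for enzymes and inhibitors. It was -1.05 for IGF binding proteins, -0.73 for mesothelial genes and 0.07 for Krt8 and Krt18. Signals on EP2KO 4 were thus lower by 10.6-fold for Col1a1 and 12.4-fold for Pdgfra than on EP2KO 3. For Msln (0.214 and 0.227) and Igfbp4 (0.240 and 0.238) the pair hardly differed. For the collagen and fibroblast genes the list medians of WT 3 and WT 4 (0.95 and 1.32) and of EP2KO 1 and EP2KO 2 (0.32 and 1.04, each gene centred on its mean) were closer to each other. For the mesothelial genes the medians of EP2KO 1 and EP2KO 2 (0.45 and 1.55) were further apart than those of EP2KO 3 and EP2KO 4 (-1.23 and -1.97). These are differences between single arrays and have no replicate check.

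**Figure D4:**
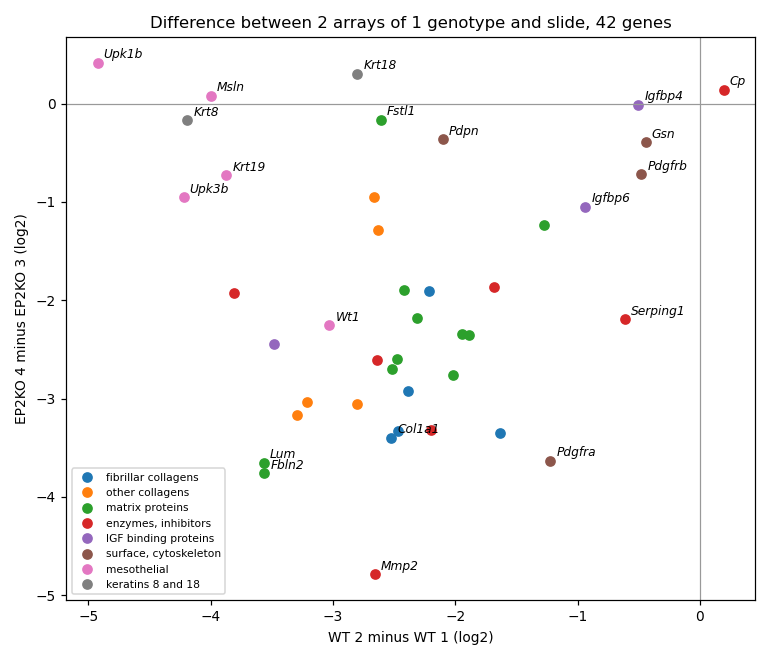
Scatter plot of WT 2 minus WT 1 (horizontal, log2) against EP2KO 4 minus EP2KO 3 (vertical, log2), 1 point per gene, coloured by role. Most collagen and matrix genes are low on both axes, Msln, Upk1b, Krt8, Krt18 and Fstl1 are low on the horizontal axis alone, and Cp and Igfbp4 lie near 0 on both.

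The 2 main groups of members therefore did not keep a fixed distance from array to array. With each gene centred on its mean over the 8 arrays, the collagen and fibroblast median was 0.79, -1.25, 0.95 and 1.32 on WT 1 to WT 4 and 0.32, 1.04, -0.61 and -3.11 on EP2KO 1 to EP2KO 4. The mesothelial median was 1.46, -2.70, 1.43 and 0.93 on the WT arrays and 0.45, 1.55, -1.23 and -1.97 on the EP2KO arrays. The mesothelial genes were the lower group on WT 2, by 1.45, and the collagen and fibroblast genes on EP2KO 4, by 1.14 (a gap of -1.14). On the other 6 arrays the gap was between -0.67 and 0.62. Each array is a single sample, so these gaps are a description.

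Further genes listed for mesothelium gave a similar picture, and those listed for fibroblasts and matrix a more mixed one. Of 12 further mesothelial genes 10 were tested, and their median was 1.17 on slide 1 (10 of 10 higher) and -3.67 on slide 2 (10 of 10 lower). In the fit of slide 2 alone Lrrn4, Efemp1, Cldn15, Rspo1 and Gpm6a were called lower in limma, and none was called over all arrays. Over all arrays Nkain4 was at -1.76 ± 1.14, Efemp1 at -1.74 ± 1.20 and Rspo1, an activator of Wnt signalling, at -1.59 ± 1.1. Of 25 further fibroblast and matrix genes 18 were tested, with medians of 0.44 and -1.82. In EP2KO, 11 of these 18 were higher on slide 1, and 15 were lower and 3 higher on slide 2. The medians thus join unlike genes. Mfap4 (-1.86 ± 0.67), Cygb (-2.13 ± 0.92) and Col14a1 (-1.33 ± 0.59) had the smallest unadjusted p and were not called. Ctsk (cathepsin K), a collagen-degrading protease that macrophages and osteoclasts can make, was called higher on slide 2 by 5.21, and Thy1 (-2.22) and Nid1 (-1.89) were called lower there.

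The genes that modify, fold and process collagen were mixed. All 17 were tested, and their genotype median was 0.04, with 0.66 on slide 1 and -0.11 on slide 2. Of the 17, 8 were more than 1 log2 unit lower on WT 2 than on WT 1, and 6 on EP2KO 4 than on EP2KO 3. Chosen after their values were seen, 6 genes combined a higher signal in EP2KO on slide 1 with one over 1 log2 unit lower on slide 2. Serpinh1, the collagen chaperone HSP47, was at 1.13 on slide 1 and -3.02 on slide 2, and Pcolce, an enhancer of procollagen cleavage, at 0.89 and -3.45. Bmp1 (1.07 and -3.13) and Adamts2 (0.86 and -2.98) cleave procollagen. The cross-linking enzyme Loxl2 was at 1.41 and -2.11, and the lysyl hydroxylase Plod2 at 1.07 and -1.44. The prolyl and lysyl hydroxylase genes with the smallest p were P4hb (0.22 ± 0.13) and Plod1 (0.29 ± 0.12), and Crtap, a subunit of prolyl 3-hydroxylase complexes, was at 0.39 ± 0.29. P4ha2, Plod3 and P3h1 were called lower on slide 2 than on slide 1 (-1.16, -0.61 and -0.83). Of 17 TGF-beta and PDGF signalling genes 16 were tested, with a median of -0.06. Pdgfb, a ligand of the PDGF receptors, was lower in EP2KO by 1.21 (log2 difference -1.21 ± 0.25, unadjusted p = 0.00121 and adjusted p = 1 in limma). It had 3.24, 2.81, 5.80 and 4.43 on the WT arrays and 1.42, 1.93, 1.81 and 1.63 on the EP2KO arrays, with no overlap. Ltbp1, which binds latent TGF-beta, was at 2.97 ± 1.16, and Smad7, an inhibitor of that pathway, at -0.46 ± 0.19. Between slides Tgfb1 (0.60), Tgfbr1 (1.20), Ltbp3 (0.92), Pdgfa (2.32) and Pdgfc (2.11) were called higher on slide 2, and Tgfb2 (-1.54), Smad3 (-1.84) and Ltbp1 (-2.98) lower. These 5 higher and 3 lower of 16 were near the shares over all features, 25.1% and 18.2%. Slide calls in the other further lists stand against the same shares.

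**Figure D5:**
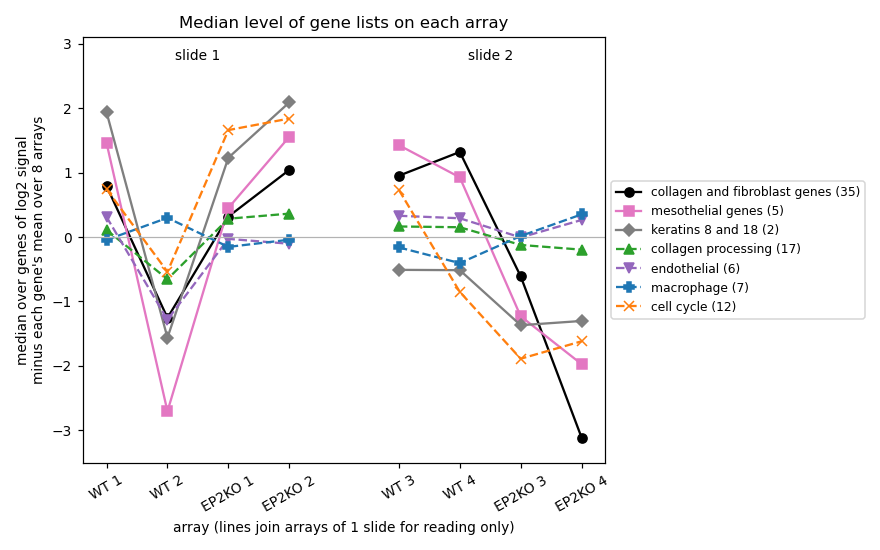
Median over genes of log2 signal minus each gene's mean over 8 arrays, by array (slide 1 left, slide 2 right), for 1 line per gene list; lines join arrays of a slide for reading only. The collagen and fibroblast line drops to -3.11 on EP2KO 4, the mesothelial line to -2.70 on WT 2, and the macrophage line stays between -0.40 and 0.35. Further lines show keratins 8 and 18, collagen processing, endothelial and cell cycle genes.

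Markers of macrophages and of other cell types were measured on the same arrays. Of 8 macrophage markers 7 were tested, and all 7 were well above background on all 8 arrays. Their summed relative signal ran from 193 to 326 on WT arrays and from 253 to 309 on EP2KO arrays, with a genotype median of 0.02. By slide that median was -0.20 on slide 1 (6 of 7 lower) and 0.41 on slide 2 (6 of 7 higher), opposite in sign to the members. With each gene centred on its mean, the macrophage median was highest on EP2KO 4 (0.35) and WT 2 (0.30) and lowest on WT 4 (-0.40). Adgre1 (F4/80) was at 0.32 ± 0.14, Lyz2 at 0.26 ± 0.22 and Cd14 at -0.37 ± 0.47. Between slides Fcgr1 was called higher on slide 2 (0.97), and Itgam (-0.66) and Cd14 (-1.24) lower. The summed signal of the 42 members ran from 58.1 (WT 2) to 303 (WT 4) on WT arrays and from 45 (EP2KO 4) to 224 (EP2KO 2) on EP2KO arrays. Of 8 smooth muscle and pericyte markers 5 were tested, with a median of -2.30 on slide 2 and a summed signal from 0.905 to 3.19 on WT and from 0.786 to 4.00 on EP2KO arrays. Myh11, Cnn1 and Rgs5 were not well above background on all arrays of either genotype. Of 10 endothelial markers 6 were tested, with a median of 0.04, and Tek and Tie1 were above background on 0 arrays. On slide 2 Vwf (4.49), Cdh5 (0.76) and Kdr (0.44) were called higher and Pecam1 (-0.67) lower.

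Of 8 adipocyte markers 3 were tested, and Adipoq, Plin1, Cidec, Lep and Cfd were not. Fabp4 and Lpl, which macrophages also express, were called higher on slide 2 (2.24 and 1.47), and Retn (resistin) lower (-1.07). Of 7 epithelial markers 6 were tested, with a median of -1.03. Krt20 had 2.80 on WT 1 and at most 0.423 on any other array, and WT 1 also had the highest Epcam (0.175) and Cldn7 (0.805). Of 7 lymphocyte markers all were tested, 6 of them were called lower on slide 2, and the list's slide median was -3.17. The 12 cell cycle genes also changed sign in their means, with medians of 1.67 on slide 1 (12 of 12 higher) and -1.72 on slide 2 (12 of 12 lower). On slide 1 both EP2KO arrays lay above both WT arrays in 11 of these 12. That was so in only 4 of the 42 members and in 15.6% of features. The summed signal of the cell cycle genes ran from 9.07 to 27.6 on WT and from 4.37 to 57.3 on EP2KO arrays. The part of these other cell types, of the slide and of single arrays in the members' differences was not tested.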

How the data were processed

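RNA of macrophages was hybridised to 8 1-colour Agilent arrays, 4 per genotype, and extracted, amplified and labelled with Cy3 per the labels' protocols. The deposited scanner files give a linear intensity per spot, background-corrected but not scaled between arrays, per the file headers. Feature Extraction was version 10.7.1.1 in those headers and 9.1 in the submitters' processing notes. The deposited series table held the same intensity values (largest log2 difference 0), with column medians from 52.6 to 96.9, so it is linear and uncentred.

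Each array's log2 processed signal was reduced by its 75th percentile over the spots that were not controls (1377 of 44397 were). Spots of a probe were averaged. Probes entered the tests if well above background on every array of WT, of EP2KO or of both. Each gene was read from its brightest such probe, and 9 members had 2. Differences were tested with limma 3.58.1 in R 4.3.3 (lmFit, eBayes, two-sided, threshold 0.05) over all features, after a test on simulated data. The fits were genotype alone, with slide, with their interaction, and with the replicate number as a block. Slides came from the file headers. The WT and EP2KO arrays with the same replicate number correlated in their deviations to differing degrees. The r was 0.74 for number 1, 0.55 for number 3 and 0.43 for number 4, but only 0.12 for number 2. Pairing by number entered only the fit with that block. The genotype differences and SE given over all arrays come from the fit of genotype alone, which is unpaired. Both arrays of any pair also lay on the same slide. All 42 members could be named, with Ptger2, and from each further list the 3 genes with the smallest unadjusted p and those called. The members and lists were chosen with earlier results of these data known. Alternatives covered background, scaling, filters, probes, blocks, array weights, variance model and arrays left out. The normexp alternative (offset 50) used the median spot signal, since a mean spot signal was not used here. The number of arrays limits the precision.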

Additional observations from a re-analysis of the deposited data

Results flagged for a closer look

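On WT 2, 7 members and the mesothelial median stood apart from the other 3 WT arrays: its gap to the nearest of them, as a share of the whole range of the 4 WT arrays, exceeded Dixon's critical value for 4 samples. The share was 0.832 for Col4a1, 0.830 for Col6a1, 0.864 for Postn and 0.897 for Fstl1. For Wt1 it was 0.887, for Msln 0.887, for Upk3b 0.859 and for the mesothelial median 0.872. In each case WT 2 was the low array. Of 88 groups of 4 arrays examined, 8 passed this limit, where chance alone would give about 4.4. The 8 are not independent, since all concern 1 array.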

How the results depend on the processing

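No member was called in EP2KO against WT under any alternative that used all 8 arrays or left out 1 of them; on slide 2 alone 5 were called lower. The collagen and fibroblast median kept its sign in all settings but slide 1 alone (1.04), with -3.12 on slide 2 alone, -1.66 to -0.86 over settings with all 8 arrays and -1.93 to -0.18 with 1 array left out. The mesothelial median was 1.58 on slide 1 alone, -3.37 on slide 2 alone, -1.56 to -0.56 with all 8 arrays, and -2.13 to 0.015 with 1 left out. With the replicate block both medians equalled those without it (-1.09 and -0.70), which the balanced design fixes in advance. The replicate block changed no call of a member. With WT 2 and EP2KO 4 both left out, a setting chosen after seeing the data, the medians ran from -0.97 to -0.68 and from -1.26 to -0.99.

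For slide 2 against slide 1, members called lower numbered 1 with median scaling (Cp), 3 with array weights (Krt18, Cp and Krt8), and from 0 to 4 with 1 array left out. For the interaction they numbered 1 (Cp) with probes well above background on all 8 arrays, 1 (Cp) with a trended robust variance, and from 0 to 17 with 1 array left out: 17 without WT 1, 1 without WT 4 (Cp) and 1 without EP2KO 3 (Serping1). Each of these fits leaves 1 array (WT 2, WT 3 or EP2KO 4) alone in its genotype and slide, assumed to vary like the other groups.

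On slide 1 alone 36 members had the opposite sign to the fit over all arrays: Col1a1 1.02, Col1a2 1.00, Col3a1 0.57, Col5a1 1.07, Col5a2 1.28, Col4a1 1.67, Col4a2 1.58, Col6a1 1.33, Col6a2 1.33, Col6a3 1.37, Sparc 0.57, Dcn 0.40, Lum 0.80, Bgn 0.93, Fbln1 0.64, Fbln2 1.53, Fbn1 1.11, Postn 1.04, Mgp 1.27, Aebp1 1.05, Lox 1.15, Loxl1 1.27, Mmp2 1.20, Timp3 1.61, Serpinf1 0.94, Serping1 0.35, Cp 0.31, Igfbp4 0.50, Igfbp5 0.75, Pdgfra 0.72, Pdgfrb 0.44, Wt1 1.24, Msln 1.97, Upk3b 1.58, Upk1b 1.99 and Krt19 1.49. On slide 2 alone Pdpn was -0.18, Krt8 -0.83 and Krt18 -0.81. Krt8 was -0.22 with normexp and -0.26 with array weights, where Krt18 was -0.041. With WT 2 and EP2KO 4 both left out, Fstl1 was -0.10 and Pdpn -0.50; adding the slide as a block gave Fstl1 -0.060, Krt8 -0.78 and Krt18 -0.35.

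Leaving out 1 array turned the sign of 19 members, 13 of them without EP2KO 4. Their ranges were -1.68 to 0.29 (Col1a1), -1.21 to 0.36 (Col4a1), -1.15 to 0.31 (Col4a2), -1.93 to 0.10 (Col5a1), -1.70 to 0.34 (Col6a1), -1.70 to 0.38 (Col6a2), -1.61 to 0.37 (Col6a3), -1.98 to 0.44 (Fbln2), -0.091 to 0.97 (Fstl1), -0.52 to 0.013 (Gsn), -0.38 to 0.98 (Krt18), -1.50 to 0.17 (Krt19), -0.83 to 1.07 (Krt8), -1.30 to 0.18 (Lox), -2.23 to 0.23 (Mmp2), -1.43 to 0.34 (Msln), -0.30 to 1.14 (Pdpn), -1.31 to 0.29 (Postn) and -2.23 to 0.015 (Upk1b). Apart from WT 2 and EP2KO 4, whose low values are given above, the cause of these changes was not tested.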
